A study of Mus musculus with 6 samples.

Results

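The genes described here carry insulin and insulin-like growth factor (IGF) signals, and the measurement was the methylation of their CpG sites in the dentate gyrus of the mouse. The set held 9 genes, 1 ligand (Igf1), 2 receptors (Igf1r and Insr), 2 receptor substrates (Irs1 and Irs2) and 4 IGF binding proteins (Igfbp2, Igfbp3, Igfbp4 and Igfbp5). The sites of a gene were those lying between 1 kb upstream of its start and its end in the GENCODE M21 annotation of mm10 (GRCm38). This gave 577 of the 890041 measured CpG sites, in 8 of the 9 genes. DNA came from micro-dissected dentate gyrus of 6 female C57BL/6JRj mice aged 4.5 months. Of these, 3 mice had lived in standard cages (STD) and 3 in an environmental enrichment enclosure with tunnels and toys (ENR) for 3 months, and each library was 1 mouse. ENR mice of an experiment were housed together, so that the effects of enrichment and of a shared enclosure cannot be told apart. Reduced representation bisulfite sequencing (RRBS) cuts DNA at CCGG, and each value is the percentage of reads over a cytosine that were methylated. Read numbers were not part of the values, so the depth of a site is unknown beyond the minimum set by the authors.

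Insulin binds the receptor encoded by Insr, and IGF1 binds the receptor encoded by Igf1r. Both receptors are tyrosine kinases that phosphorylate the adaptor proteins IRS1 and IRS2, which recruit PI3 kinase and activate AKT. IGF binding proteins hold IGFs in the extracellular fluid and set how much reaches the receptor. In the hippocampus, IGF1 is known to promote the survival and maturation of adult-born granule neurons. Methylation of a CpG-rich promoter generally accompanies silencing of its gene, whereas methylation inside gene bodies is common in expressed genes.

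The 5 sequences below are shown because they carry the main contrasts of the set. All are GRCm38 reference sequence, written 5′ to 3′ on the strand of the gene except where stated. The first is the 250 bases before the Igf1 gene record, at chr10:87858015-87858264 on the plus strand, in which CpGs are in capitals. It holds 3 CpGs and 1 CCGG, and no site of it was measured. The second is the 250 bases before the RefSeq start of Igf1r, at chr7:67952007-67952256 on the plus strand, with 42 CpGs in capitals and 5 CCGG, where 34 sites were measured with a mean of 1.10%. The third is a block inside an intron of Insr, at chr8:3221042-3221281 on the minus strand, with 24 CpGs in capitals, where 16 sites averaged 1.45%. The fourth lies in a coding exon of Igf1r, at chr7:68183405-68183478 on the plus strand, with 5 CpGs in capitals, and its 5 measured sites averaged 84.6%. The fifth lies in an intron of Igfbp3, at chr11:7209367-7209444, written on the plus strand although the gene is on the minus strand. Its capitals mark the CCGG at either end, whose CpGs differed between strands.
Igf1 upstream: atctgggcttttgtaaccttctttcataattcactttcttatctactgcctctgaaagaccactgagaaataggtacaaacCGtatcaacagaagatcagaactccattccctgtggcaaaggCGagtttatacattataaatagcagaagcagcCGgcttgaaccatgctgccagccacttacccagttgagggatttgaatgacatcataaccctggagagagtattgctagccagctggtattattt
Igf1r upstream: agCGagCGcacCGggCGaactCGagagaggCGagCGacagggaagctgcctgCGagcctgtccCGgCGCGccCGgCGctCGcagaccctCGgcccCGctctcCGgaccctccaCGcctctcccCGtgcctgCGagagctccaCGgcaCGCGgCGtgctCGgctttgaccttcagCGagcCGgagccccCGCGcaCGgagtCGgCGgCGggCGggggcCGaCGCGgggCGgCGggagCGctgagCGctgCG
Insr intron: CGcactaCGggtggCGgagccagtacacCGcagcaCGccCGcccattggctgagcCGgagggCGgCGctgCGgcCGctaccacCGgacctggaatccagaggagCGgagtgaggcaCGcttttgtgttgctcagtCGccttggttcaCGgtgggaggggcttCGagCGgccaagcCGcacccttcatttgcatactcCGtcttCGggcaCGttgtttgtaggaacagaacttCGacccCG
Igf1r coding exon: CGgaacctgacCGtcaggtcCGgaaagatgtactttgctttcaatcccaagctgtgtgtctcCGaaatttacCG
Igfbp3 intron: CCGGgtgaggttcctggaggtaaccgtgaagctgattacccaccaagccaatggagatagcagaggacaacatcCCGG

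A promoter was defined as the 1 kb on either side of the gene start, and the gene body as the rest of the gene. Of the 577 sites, 391 lay in promoters and 186 in gene bodies. Each strand of a CpG was a separate site. Over all protein-coding genes with at least 3 sites, the mean body level was lowest in replicate 3 of both groups, at 43.7% in STD 3 and 41.4% in ENR 3, against 46.5% to 47.3% in the other 4 libraries. Promoters of marker genes could be measured for 11 of 28 listed markers of 6 cell types, the granule neuron among them. Their mean levels differed between ENR and STD by -0.641 to 1.24 percentage points in 5 of the cell types. Of these 5, oligodendrocytes were represented by Mbp alone and interneurons by Gad2 alone. Microglia were represented by P2ry12 alone, at 18.8%, 16.2% and 13.1% in STD and 23.0%, 16.8% and 34.8% in ENR, a difference of 8.83 points that was 3.85 without ENR 3. The exact permutation p was at least 0.2 for each cell type, and the part of cell makeup in the results below was not tested. The mean of the 4 measured granule neuron promoters stood between 0.931% and 1.93% in the 6 libraries. In whole tissue, a change in the share of a cell type and a change within a cell cannot be told apart.

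The ligand Igf1 (chr10:87858265-87937042, plus strand) had no methylation value. Its span holds 591 CpGs and 26 CCGG, of which 1 CCGG lies within 1 kb of the start, but 0 sites were measured. RefSeq places the start of Igf1 elsewhere, inside this span, and its promoter window, chr10:87860861-87861160, from 250 bases before to 50 bases after that start, has 6 CpGs and no CCGG. CCGG occurred in 52.8% of 32851 RefSeq promoter windows of 300 bases, and the median window had 7 CpGs. Methylation of Igf1 was therefore not assessed in either group.

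The receptor genes had low promoters and long bodies with mixed levels. Igf1r (chr7:67952827-68233668, plus strand) encodes the IGF1 receptor, and its RefSeq promoter window had 48 CpGs, more than 98.8% of all windows. In the promoter of Igf1r, 123 sites averaged 0.792%, 1.04% and 1.36% in the STD libraries and 0.882%, 1.62% and 0.944% in the ENR libraries. At 68 of these sites all 6 libraries were at 0. The 47 body sites of Igf1r averaged 52.4%, 46.3% and 41.1% in STD and 46.2%, 48.2% and 35.8% in ENR. The groups overlapped in both regions, and the lowest body value of each group was again that of replicate 3. Within the body of Igf1r, 12 sites in coding exons averaged 79.3% and 35 sites in introns averaged 33.2%. The intron level was not uniform, since 3 sites between 120069 and 120126 bp from the start averaged 82.7% while 2 sites between 120481 and 120537 bp averaged 20.1%.

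Insr (chr8:3122061-3279617, minus strand) encodes the insulin receptor. Its 32 promoter sites averaged 1.45%, 1.79% and 1.78% in STD and 1.38%, 0.18% and 0.818% in ENR, and the groups did not overlap. The 29 body sites of Insr averaged 23.5%, 25.2% and 18% in STD and 23.3%, 27.2% and 16.1% in ENR, with overlapping groups. The body of Insr held high and low stretches far apart from each other. The 2 coding exon sites, at 20952 and 21004 bp, averaged 98.6%, 2 intron sites at 54092 to 54123 bp averaged 43.1%, and the CpG-rich intron block printed above, at 58337 to 58575 bp, averaged 1.45%. A neighbouring intron block of 4 sites at 58016 to 58077 bp averaged 2.87%, and GENCODE M21 has no start of an Insr transcript there. At 2 intron sites between 9273 and 9343 bp the libraries split by replicate number, with 57.4% and 51.7% in STD 1 and STD 2 and 63.7% and 72.4% in ENR 1 and ENR 2, but 0% in both STD 3 and ENR 3. These 2 sites were chosen after their values were seen.

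**Figure D1:**
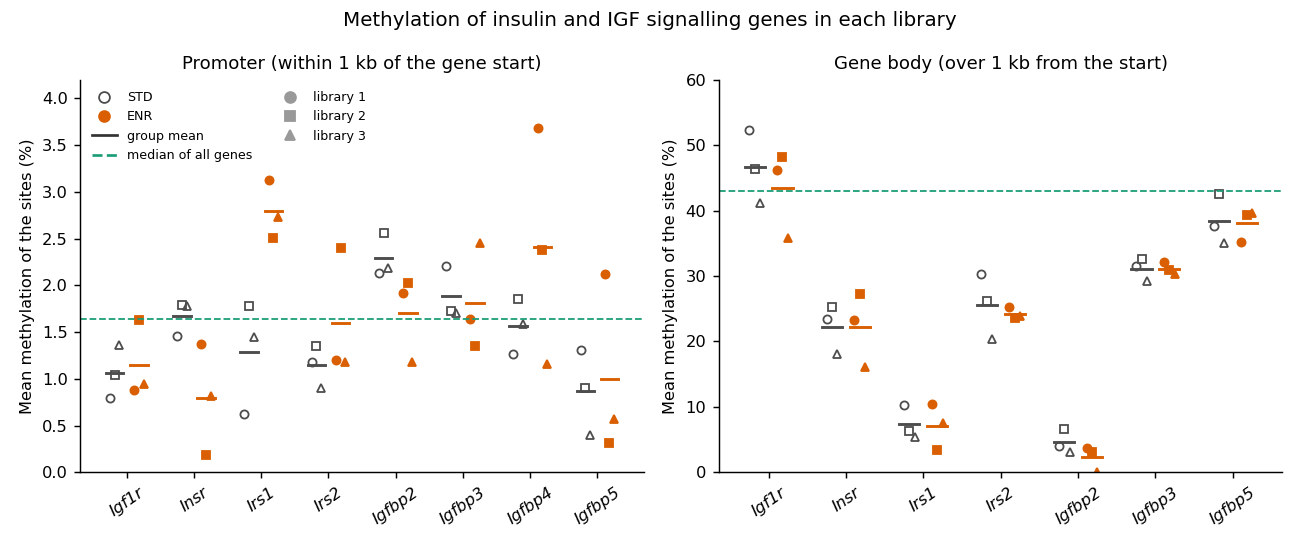
Mean methylation in percent of the promoter sites (left) and gene body sites (right) of each gene, with 1 point per library, symbols by replicate number, open grey for STD and filled orange for ENR; bars are group means and the dashed line is the median of all genes (1.64% for promoters, 43.1% for bodies). Promoter means lie under 4% in every library and body means spread from 0% in Igfbp2 to 52.4% in Igf1r.

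The substrates of the receptors had low promoters and partly methylated bodies. Irs1 (chr1:82233101-82291416, minus strand), an adaptor of both receptors, had 26 promoter sites averaging 0.622%, 1.78% and 1.45% in STD and 3.13%, 2.51% and 2.74% in ENR. All 3 ENR libraries were above all 3 STD libraries. The 37 body sites of Irs1 averaged 10.3%, 6.31% and 5.45% in STD and 10.4%, 3.39% and 7.49% in ENR. Along Irs1, 3 coding exon sites at 2465 to 2488 bp averaged 43.2%, 6 further coding sites at 3524 to 3814 bp averaged 12.8%, and 18 intron sites at 7924 to 8232 bp averaged 1.07%. The low intron block thus lay farther from the start than the methylated coding sites.

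Irs2 (chr8:10984681-11008458, minus strand), the second adaptor, had 83 promoter sites that averaged 1.18%, 1.35% and 0.898% in STD and 1.20%, 2.40% and 1.18% in ENR. The 28 body sites of Irs2 averaged 30.2%, 26.2% and 20.4% in STD and 25.2%, 23.6% and 23.9% in ENR. Groups overlapped in both regions. Along Irs2, 9 coding exon sites at 3669 to 3833 bp averaged 23.7%, 9 intron sites at 4643 to 4936 bp averaged 9.49% and 4 sites of the 3′ untranslated exon at 22001 to 22068 bp averaged 97.7%.

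Among the binding proteins, Igfbp3 and Igfbp5 had methylated distal sites. Igfbp2 was measured no farther than 3176 bp from its start, and Igfbp4 no farther than 107 bp. Igfbp2 (chr1:72824503-72852474, plus strand) was measured almost entirely at its promoter, where 68 sites averaged 2.13%, 2.56% and 2.18% in STD and 1.92%, 2.03% and 1.18% in ENR. Those groups did not overlap. Its 3 body sites averaged 4.0%, 6.67% and 3.03% in STD and 3.70%, 3.17% and 0% in ENR, and none lay more than 3176 bp from the start. The rest of the Igfbp2 body was not measured.

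Igfbp3 (chr11:7206086-7213923, minus strand) had low levels near its start and high levels toward its end. Blocks of sites averaged 1.68% around the start, 8.12% at 959 to 1335 bp, 26.0% at 1583 to 1745 bp, 65.0% at 4480 to 4555 bp and 90.2% in the 3′ untranslated exon at 6879 to 6888 bp. The 65.0% was not a level that any of its 6 sites had, since 4 stood at 91.1% to 98.5% and the other 2, each 1 strand of a CpG, at 4.23% and 9.31%. The 27 body sites of Igfbp3 averaged 31.5%, 32.6% and 29.2% in STD and 32.2%, 30.9% and 30.3% in ENR. This was the tightest body of the set, with an SD of 1.27 percentage points over the 6 libraries. Its 27 promoter sites averaged 2.21%, 1.73% and 1.71% in STD and 1.64%, 1.35% and 2.46% in ENR.

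Igfbp4 (chr11:99041244-99054392, plus strand) was measured at 12 sites of its 5′ untranslated exon only, between 37 and 107 bp from the start. They averaged 1.26%, 1.85% and 1.59% in STD and 3.68%, 2.38% and 1.16% in ENR, which overlapped. Igfbp5 (chr1:72857932-72874884, minus strand) lies beside Igfbp2 on chromosome 1. Its 20 promoter sites averaged 1.31%, 0.899% and 0.397% in STD and 2.12%, 0.318% and 0.565% in ENR, and its 15 body sites 37.6%, 42.5% and 35% in STD and 35.1%, 39.3% and 39.6% in ENR. The Igfbp5 body was split, since the 8 coding exon sites just past 1 kb averaged 0.82% and the 7 sites of its 3′ untranslated exon averaged 80.9%.

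**Figure D2:**
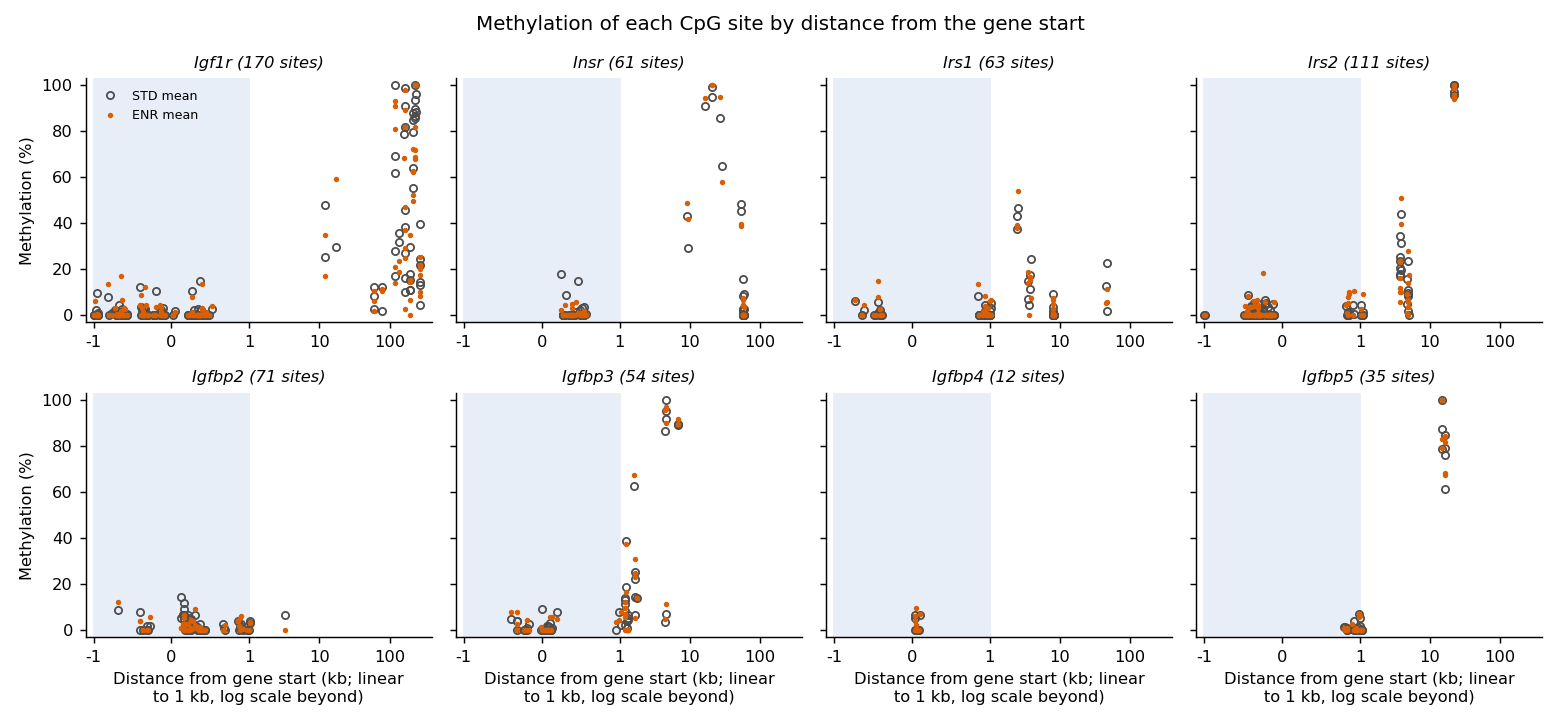
Methylation in percent of each CpG site against its distance from the gene start in kb (linear to 1 kb, log scale beyond), 1 panel per gene, with the mean of the 3 STD libraries as open grey circles, the mean of the 3 ENR libraries as orange dots and the promoter shaded. Sites in the shaded windows lie near 0, and sites beyond them reach over 80% in Igf1r, Insr, Irs2, Igfbp3 and Igfbp5 while low blocks recur in Igf1r, Insr and Irs1.

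Promoters of the 8 measured genes formed a narrow band. Their means over the 6 libraries ran from 0.934% in Igfbp5 to 2.04% in Irs1, against a median of 1.64% over 13228 protein-coding genes. Of the 391 promoter sites, 385 had a mean under 10%, 191 were at 0 in all 6 libraries and the highest mean was 10.9%. Every neighbouring pair in the order of promoter means overlapped between libraries. The 7 measured bodies were ordered Igf1r (45.0%), Igfbp5 (38.2%), Igfbp3 (31.1%), Irs2 (24.9%), Insr (22.2%), Irs1 (7.23%) and Igfbp2 (3.43%), against a median of 43.1% over 10849 genes. In this order, the ranges of the 6 libraries were apart between Igfbp5 and Igfbp3 and between Insr and Irs1, and they overlapped between all other neighbours. Of the 186 body sites, 86 had a mean under 10%, 71 lay from 10% to 80% and 29 were over 80%. Across these sites, a lower ratio of observed to expected CpGs in the surrounding 201 bases went with higher methylation (Spearman's rho = -0.531), a description over sites that share genes and fragments.

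Measured body sites were more methylated than measured promoter sites in most of these genes. The body sites covered from 0.949% of the body CpGs in Igfbp2 and 1.09% in Igf1r to 15.9% in Igfbp3. Body levels, their order and the errors below thus describe these sites over libraries, not whole bodies. Within libraries, the body minus the promoter was 43.9 percentage points in Igf1r (SE 2.40, limma adjusted p = 2.78e-06), 37.3 in Igfbp5 (SE 1.59, limma adjusted p = 8.64e-07) and 29.3 in Igfbp3 (SE 1.01, limma adjusted p = 3.34e-07). It was 23.6 in Irs2, 21 in Insr and 5.19 in Irs1 (SE 1.18, limma adjusted p = 0.00503). In these 6 genes, the body was higher in 6 of 6 libraries. In Igfbp2 the difference was 1.43 (SE 0.745, limma adjusted p = 0.111), with the body higher in 5 of 6 libraries. The test thus called 6 of the 7 genes, and it called 85.8% of all 7997 genes with the body higher, so this share is near that of other genes. The median over all genes was 36.4 percentage points and over the 7 genes 23.6. These sizes depended on where the promoter was taken to end. With a promoter reaching only upstream, the median over all genes was 4.76 points, 59.1% of 7886 genes were called with the body higher, and so were 4 of the 5 genes of the set that could be measured. The difference was then 25.8 points in Igf1r, 17.7 in Igfbp3 and 3.14 in Irs1, and Igfbp2 had the lower body (-1.0 points). With windows around the start of every annotated transcript, the 8 low coding exon sites of Igfbp5 counted as promoter and its difference was 80.02 points. The Igfbp5 call was lost when the median over sites replaced the mean (6.56 points, limma adjusted p = 0.0957), and that median gave 8.28 points in Irs2 and 14.5 in Igfbp3. In Insr the median body site was at 1.52%, with 19 of 29 body sites under 10%. In Irs1 it was at 1.92%, with 28 of 37 under 10%.

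No promoter of the set passed the test for a difference between ENR and STD. Over all 13204 promoters that varied, 0% were called at an adjusted p under 0.05 by limma, and 595 had an unadjusted p under 0.05. Igf1r differed by 0.0842 percentage points (ENR minus STD), Irs2 by 0.451, Igfbp3 by -0.065, Igfbp4 by 0.839 and Igfbp5 by 0.133. All 5 depended on single libraries. Leaving out 1 library turned the sign in Igf1r (-0.153 without ENR 2), Igfbp3 (0.168 without ENR 2) and Igfbp5 (-0.426 without ENR 1), and the difference was 0.0483 in Irs2 without ENR 2 and 0.201 in Igfbp4 without ENR 1. The groups did not overlap in 3 of the 8 promoters, Insr, Irs1 and Igfbp2, against 9.53% of all promoters. The differences were -0.885 points in Insr (SE 0.428, limma adjusted p = 0.981), 1.51 in Irs1 (SE 0.525, limma adjusted p = 0.981) and -0.581 in Igfbp2 (SE 0.492, limma adjusted p = 0.981). They were -0.579 in Insr without ENR 2, 1.18 in Irs1 without STD 1 and -0.314 in Igfbp2 without ENR 3. The exact permutation test gave p = 0.1 for each, the smallest value that 3 against 3 libraries allow.

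These 3 differences were spread unequally over sites. In Insr, 2 sites in the 5′ untranslated exon, at 465 and 251 bp from the start, had the lowest unadjusted p. The first was at 10.3%, 20% and 14.7% in STD and 3.03%, 0% and 0% in ENR, and the second at 9.09%, 15% and 29.4% in STD and 7.14%, 0% and 0% in ENR. The other 30 Insr promoter sites averaged 0.695% in STD and 0.731% in ENR, and the groups overlapped. In Igfbp2, without 2 such sites the other 66 averaged 2.0% in STD and 1.75% in ENR, also with overlap. In Irs1, without 1 such site the other 25 averaged 1.30% in STD and 2.59% in ENR, and the groups still did not overlap. The sites set aside here were chosen by their values, so this is a description.

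No gene body of the set passed the test between ENR and STD either. The test called 0% of 10843 bodies, with 351 at an unadjusted limma p under 0.05. The groups overlapped in 7 of the 7 genes, and over all genes they did not overlap in 7.48%. Igf1r differed by -3.22 percentage points (SE 4.92, limma adjusted p = 1), and by 0.581 without ENR 3. Igfbp2 differed by -2.27 and Irs2 by -1.40, and the other 4 by -0.326 to 0.0485. Leaving out 1 library also moved these, to -1.13 in Igfbp2 without ENR 3 and to 0.904 in Irs2 without STD 1, and it turned the sign in each of the other 4, with Insr between -2.57 and 2.98. ENR was lower in 6 of the 7 bodies, as it was in 60.9% of all genes, but these shares moved with the libraries used. Without ENR 3 alone, ENR was lower in 4 of the 7 bodies and in 41.8% of all genes, and the median difference over all genes went from -0.579 to 0.446 points. Without replicate 3 of both groups, ENR was lower in 6 of the 7 bodies and in 53.2% of all genes, with a median of -0.176 points. With quantile normalization between libraries, ENR was lower in 4 of the 7 bodies and in 51.5% of all genes, with a median of -0.0779 points. The test of whether the contrast between body and promoter differed with housing called 0% of 7997 genes. The differences of that contrast ran from -3.30 in Igf1r (SE 4.79) to 0.824 in Insr (SE 3.55), and with such errors a dependence of several points was not detectable. Both turned sign without 1 library, to 0.394 in Igf1r without ENR 3 and to -1.99 in Insr without ENR 2.

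At single CpG sites, limma called 0% of the 615152 sites that varied, and at an unadjusted p under 0.05 stood 2.68%. The study's own test on reads, also with a limit of 25 points, did report differing CpGs between these groups. The 0% thus belongs to the limma fit on percentages. In the promoters of the set 6 of 200 varying sites were under 0.05, of which 4 were lower in ENR, and in the bodies 5 of 148, of which 2 were lower. A difference over 25 percentage points was found at 3 sites, all in the body of Igf1r and 2 of them lower in ENR. The groups did not overlap at 1 of these 3 sites, while they did not overlap at 41.7% of the 17268 sites of the whole table with such a difference. Sites with both properties were thus 1 of the 577 here and 0.81% of all 890041. It is the first CpG of the Igf1r coding exon sequence printed above, at chr7:68183405 and 230578 bp from the start. It was at 100% in all 3 STD libraries and at 92.1%, 81.2% and 42.9% in ENR. The difference was -27.9 points (SE 11.7, limma adjusted p = 0.852), and it was -13.3 points without ENR 3. In ENR 3, 3 of the 5 sites of this block stood at 42.9%. The second CpG of the block, 11 bases on, was at 100%, 81.0% and 100% in STD and at 100% in all 3 ENR libraries.

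**Figure D3:**
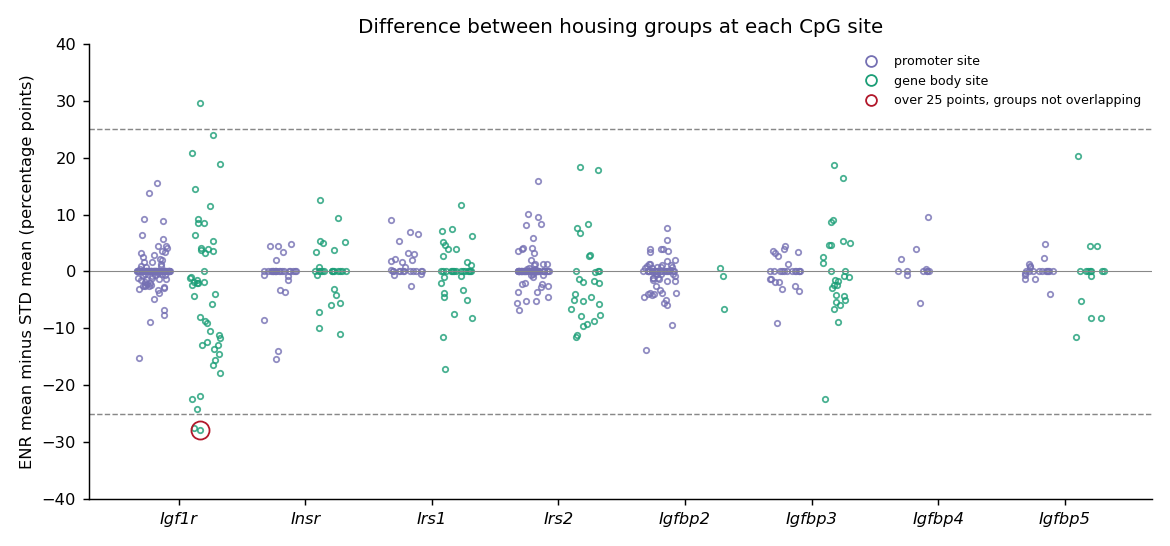
Difference in methylation (ENR mean minus STD mean, percentage points) at each of the 577 CpG sites by gene, promoter sites in purple and gene body sites in green, with dashed lines at 25 and -25. The 1 circled site, in Igf1r, is past 25 points with groups that do not overlap, and promoter sites stay within the lines.

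In windows of 1 kb with at least 3 sites, 0% of 72222 that varied were called. The window with the largest difference in each gene was taken for description. In Igf1r it was chr7:68165001-68166000, with 5 coding exon sites at 85.7%, 58.9% and 78.9% in STD and 63.7%, 73.0% and 43.1% in ENR, a difference of -14.6 points. The Igf1r difference was -6.16 without ENR 3. The Irs1 window differed by -5.03 (-2.49 without STD 1) and the Irs2 window by -4.78 (2.18 without STD 1), and those of the other genes by -1.26 to 1.97. The groups overlapped in all of them but the Insr window, which holds the same 32 promoter sites.

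Both strands were measured at 96 CpGs of the set, 18 of them in bodies. The strands differed by a median of 1.18 percentage points and by at most 11.2 at 94 CpGs. The other 2 CpGs were the outer ones of the Igfbp3 intron sequence printed above. At chr11:7209368 the plus strand averaged 94.0% and the minus strand 9.31%, and at chr11:7209442, 74 bases on, the plus strand averaged 4.23% and the minus strand 91.1%. In between, at chr11:7209391, both strands were methylated, at 92.7% and 98.5%. The low strand stayed between 0% and 19.4% in each library at the first and between 0% and 10.5% at the second, in STD and ENR alike. Without these 2 CpGs, the body of Igfbp3 exceeded its promoter by 26.0 points. Over the whole table, strands differed by over 50 points at 333 of 132538 CpGs, and 94.0% of those were in CCGG, against 21.4% of all CpGs with both strands. The distance to the next CCGG on the side of the low strand was 74 to 75 bases for the middle 80% of these, against 58 to 216 for all CpGs in CCGG with both strands. Cytosines filled in at fragment ends were removed by the authors only from reads in which adapter was found, so the low values may not be those of native cytosines, which was not tested. Both strands changed in the same direction between ENR and STD at 22 of the 39 CpGs where each strand had a difference. At another Igfbp3 intron CpG, chr11:7212704, chosen for its opposite values, the strands moved apart between groups, by -22.4 on the plus strand and 18.8 on the minus strand, and their mean by -1.83 points.

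**Figure D4:**
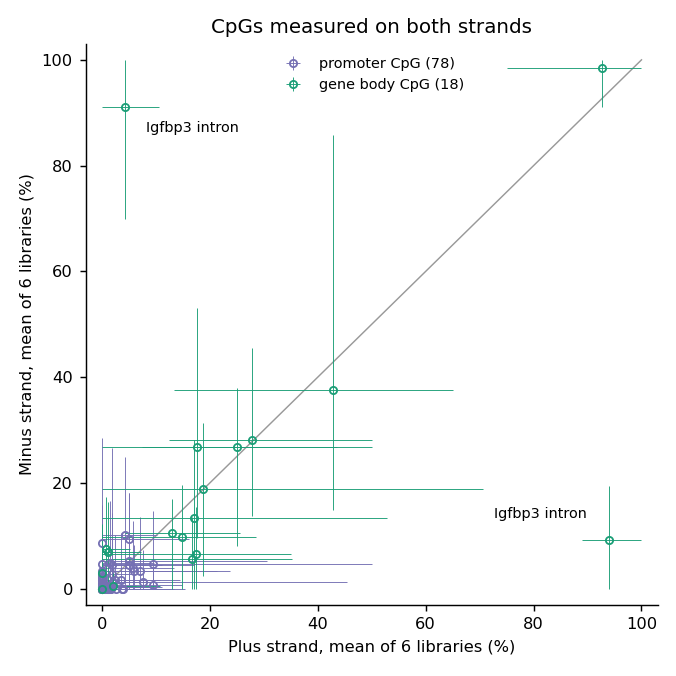
Mean methylation over the 6 libraries on the minus strand against the plus strand, in percent, for the 96 CpGs measured on both strands, promoter CpGs in purple and gene body CpGs in green; lines span the lowest to the highest library and the diagonal marks equal levels. The 2 CpGs of the Igfbp3 intron lie in opposite corners.

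Other genes of the pathway, from ligands and receptor adaptors to PI3 kinase, AKT, mTOR and FOXO factors, were listed (51 genes) and measured at 40 promoters and 40 bodies. None was called in either region. Their promoter median was 1.51% and 36 of the 40 were under 10%, the others being Igfbp6, Irs4, Akt1 and Foxo4. Their median body level was 32.0%. The largest body differences were those of Gsk3b, a kinase inhibited by AKT (-10.9 points, 3 sites, exact permutation p = 0.5), and Pik3r2, a regulatory subunit of PI3 kinase (-10.7 points, 11 sites, exact permutation p = 0.3). Groups did not overlap in 2 promoters, Pik3ca and Rheb, and in 4 bodies, Insrr, Pik3r1, Foxo6 and Stc2, which were named after their values were seen. These are 2 and 4 of 40 genes, numbers near the 9.53% of all promoters and 7.48% of all bodies without overlap. In Pik3r1, another regulatory subunit of PI3 kinase, 79 body sites averaged 23.4%, 19.8% and 19.2% in STD and 14.5%, 15.5% and 14.6% in ENR (-5.96 points, exact permutation p = 0.1, limma adjusted p = 1).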

How the data were processed

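The authors trimmed reads with Trim Galore and cutadapt 1.8.1, removing 2 further bases only from reads in which adapter was found so as to drop cytosines filled in at fragment ends. Reads were aligned to mm10 with Bismark and filtered by coverage with methylKit 1.5.2. The deposited table holds the percent of methylated reads per cytosine and library and no read numbers, and every one of its library columns was used. Thus intervals that need the depth could not be made, and each site counted equally in a mean.

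Means over at least 3 sites per promoter or body of all protein-coding genes, single sites and 1 kb windows were fitted with limma 3.58.1 in R 4.3.3 (variance trend, percentage scale, Benjamini-Hochberg adjustment), in place of the study's test on reads. Sites and windows also needed a difference over 25 points to be called. Body minus promoter was tested against 0 as the mean of both groups. Single values were compared by two-sided exact permutation tests. The fits were run on simulated data with known shifts. The share recovered is not given here, and a call of 0% does not show that housing had no effect. The members and the lists of other genes and markers were chosen with earlier results of these data known. The rule for names took the site with the lowest p among those over 25 points without overlap, the window with the largest difference in each gene, and, of the other pathway genes, the 2 with the largest body difference and any that was called. Blocks joined sites up to 200 bp apart. RefSeq promoter windows matched 8 of 9 genes.

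Alternatives changed the scale, variance trend, normalization, summary over sites, minimum of sites, strands, biotypes, promoter limits and site limit, left out each library, or added the replicate number as a block. Leaving out replicate 3 of both groups, and CpGs whose strands differed by over 50 points, were added after seeing the data.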

Additional observations from a re-analysis of the deposited data

How the results depend on the processing

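The number of calls between ENR and STD stayed at 0 under all alternatives run for gene bodies, CpG sites and 1 kb windows. For promoters it was 1 on the arcsine scale and 1 with no variance trend, and it ranged from 0 to 1 when single libraries were left out, as it did for whole gene spans (0 to 1) and for the test of body minus promoter against housing (0 to 1). None of these calls was a gene described above. Calls of body minus promoter within libraries went from 7175 to 3888 with at least 10 sites, where fewer genes (4322) were tested, to 5287 of 7886 genes with the upstream 1 kb as the promoter (4662 with the body higher), and from 7050 to 7143 without single libraries. The same-numbered libraries correlated in their deviations from the group means by 0.0602, 0.0348 and 0.135 over CpG sites, by 0.198, 0.176 and 0.399 over promoters and by 0.114, 0.0769 and 0.211 over bodies. All 3 were thus over 0.1 for promoters but not for sites or bodies. Libraries of unlike number also correlated over promoters, STD 1 with ENR 2 by 0.134 and STD 2 with ENR 1 by 0.111, whereas STD 3 with ENR 1 gave -0.248. Whether the numbers pair the mice was therefore not settled, and both fits are given. With the replicate block, 0 features of each kind were called between ENR and STD. The block was not run for body minus promoter within libraries, the only test that called genes of the set. The study's test on reads was not run, since the values hold no read numbers.

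Differences of the members that turned sign had no call in either direction. With a promoter of 500 bp on either side, the promoter difference became -0.112 in Igf1r and -0.000535 in Irs2, the body difference 0.214 in Irs1 and 0.0109 in Igfbp2, and body minus promoter -0.0275 in Igfbp2, with 0.920 for its dependence on housing. With the upstream 1 kb alone, promoters differed by -0.000521 in Irs2, 0.724 in Igfbp2 and 0.816 in Igfbp3, bodies by 0.214 in Irs1 and -0.196 in Igfbp3, and body minus promoter was -1.0 in Igfbp2, with -1.01 for Igfbp3 between the groups. Quantile normalization gave 0.393 for the Igfbp3 promoter, 0.196 for the Insr body and 0.487 for the Irs1 body. It gave -0.259 for Igfbp3 body minus promoter between groups and 0.00216 for the Igfbp5 window. Averaging strands gave -0.0239 for the Igfbp5 promoter and, for Igfbp3, -0.214 in the body and -0.127 for body minus promoter between groups. The median over sites gave -0.620 for both in Igfbp3, and leaving out CpGs with unlike strands -0.802 and -0.737. Without replicate 3 of both groups, the body difference was 0.873 in Insr and -0.481 in Igfbp3. The difference of body minus promoter between groups was then -0.00945 in Igfbp3, and that of the Igfbp3 window -0.854.

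Leaving out single libraries turned the sign of further differences. Promoter differences ranged from -0.153 to 0.232 in Igf1r, from -0.385 to 0.168 in Igfbp3, from -0.426 to 0.475 in Igfbp5. Body differences ranged from -5.96 to 0.581 in Igf1r, from -2.57 to 2.98 in Insr, from -1.92 to 1.61 in Irs1, from -4.01 to 0.904 in Irs2, from -0.908 to 0.806 in Igfbp3, from -2.0 to 1.73 in Igfbp5. Differences of body minus promoter ranged from -6.19 to 0.394 in Igf1r, from -1.99 to 3.88 in Insr, from -3.26 to 0.0488 in Irs1, from -4.34 to 0.433 in Irs2, from -0.757 to 0.948 in Igfbp3, from -1.9 to 1.58 in Igfbp5. Window differences ranged from -12.3 to 2.18 in Irs2, from -0.195 to 3.07 in Igfbp3, from -6.3 to 2.95 in Igfbp5. Other differences kept their sign but moved in size. Promoter differences ranged from -1.18 to -0.579 in Insr, from 1.18 to 1.76 in Irs1, from 0.0483 to 0.657 in Irs2, from -0.742 to -0.314 in Igfbp2 and from 0.201 to 1.46 in Igfbp4, the Igfbp2 body difference from -3.04 to -1.13, that of the Igf1r site from -37.9 to -13.3 and window differences from -22.4 to -6.16 in Igf1r, from -8.01 to -2.49 in Irs1 and from -1.25 to -0.578 in Igfbp2, while the Insr and Igfbp4 windows hold the promoter sites already given. The difference of body minus promoter in Igfbp2 ranged from -2.4 to -0.775.

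The cause of these shifts was not tested. Percentages from few reads move in large steps, and the depth of single sites is unknown.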
